A study of Homo sapiens with 3 samples.

Results

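CDK1 and 9 of its mitotic entry regulators were followed in cantharidin-treated and okadaic acid-treated cells of PANC-1, a human line established from pancreatic cancer. The 10 genes are the kinase CDK1, its cyclins CCNB1, CCNB2 and CCNA2, the activating phosphatases CDC25A, CDC25B and CDC25C, the inhibitory kinases WEE1 and PKMYT1, and the mitotic kinase PLK1. They were chosen by name, with earlier results of these data known. All 10 had probes among the 19699 genes named on the array, with 12 of the 34041 probes used. The control cells received no agent, and the treated cells received 20 µM cantharidin or 20 µM okadaic acid, per the labels, for 24 h. Both compounds inhibit protein phosphatase 2A (PP2A), and the series addressed how such inhibitors bear on CDK1 and on the entry into mitosis. Total RNA was hybridised to 1 array per group, 3 arrays in all, so differences between groups could not be set against replicates and are given without a test.

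CDK1 is the kinase that drives cells from G2 into mitosis. It works only when bound to a cyclin, and WEE1 and PKMYT1 (the kinase Myt1) hold it inactive by phosphorylating its ATP-binding site until CDC25 phosphatases remove those phosphates. PLK1 promotes that switch by acting on CDC25C, WEE1 and PKMYT1, and PP2A with its B55 subunits opposes CDK1 by dephosphorylating its substrates. Most of these genes are transcribed in waves during S, G2 and mitosis, so their transcripts mark cycling cells.

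The labelled cell type was checked first. All 7 ductal epithelial markers were well above background in control cells, among them the keratin KRT18 with an intensity of 70664, and CDH1 (E-cadherin) was not well above background under either agent. Of these 7 markers, 4 were at least 1.5-fold lower and 1 higher with cantharidin, and 4 lower and 2 higher with okadaic acid. Of all genes, 34.1% were lower and 27.5% higher with cantharidin, and 28.8% and 28.1% with okadaic acid. SOX9, a ductal transcription factor, was 7.55-fold and 3.38-fold lower, and the adhesion protein EPCAM 3.42-fold and 2.20-fold lower. In the other direction, KRT18 was 1.99-fold and 2.29-fold higher. The keratin KRT19 was 2.59-fold higher under okadaic acid and within 1.5-fold of control under cantharidin. Among 9 markers of blood, endothelial, acinar and islet cells, CPA1 and the representing probe of PECAM1 were not well above background on any of the 3 arrays (another PECAM1 probe was in control cells, with an intensity of 45.0), and the other 7 had control intensities between 110 for PRSS1 and 792 for INS. Summed over the 9 genes, these markers came to 2.99 times the 75th percentile of all probes in control cells, 3.45 times under cantharidin and 2.90 times under okadaic acid. Their part in the results was not tested.

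Under cantharidin all 10 genes lay below control by at least 1.5-fold, from 2.39-fold for WEE1 to 61.1-fold for CDK1. Among all 16644 genes compared, 34.1% were at least 1.5-fold lower and 27.5% at least 1.5-fold higher. The median log2 difference of the 10 genes was -2.76, against -0.16 over all genes. Under okadaic acid 8 of the genes were at least 1.5-fold lower, WEE1 was 1.59-fold higher, and CDC25A lay within 1.5-fold of control. Of 16166 genes compared there, 28.8% were at least 1.5-fold lower and 28.1% at least 1.5-fold higher. Their median log2 difference was -2.54, against 0.01 over all genes. Every difference was computed on signals scaled to the 75th percentile of their array. In RNA from whole cultures, fewer cells in the phases that use these transcripts and less of each transcript per cell cannot be told apart.

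**Figure D1:**
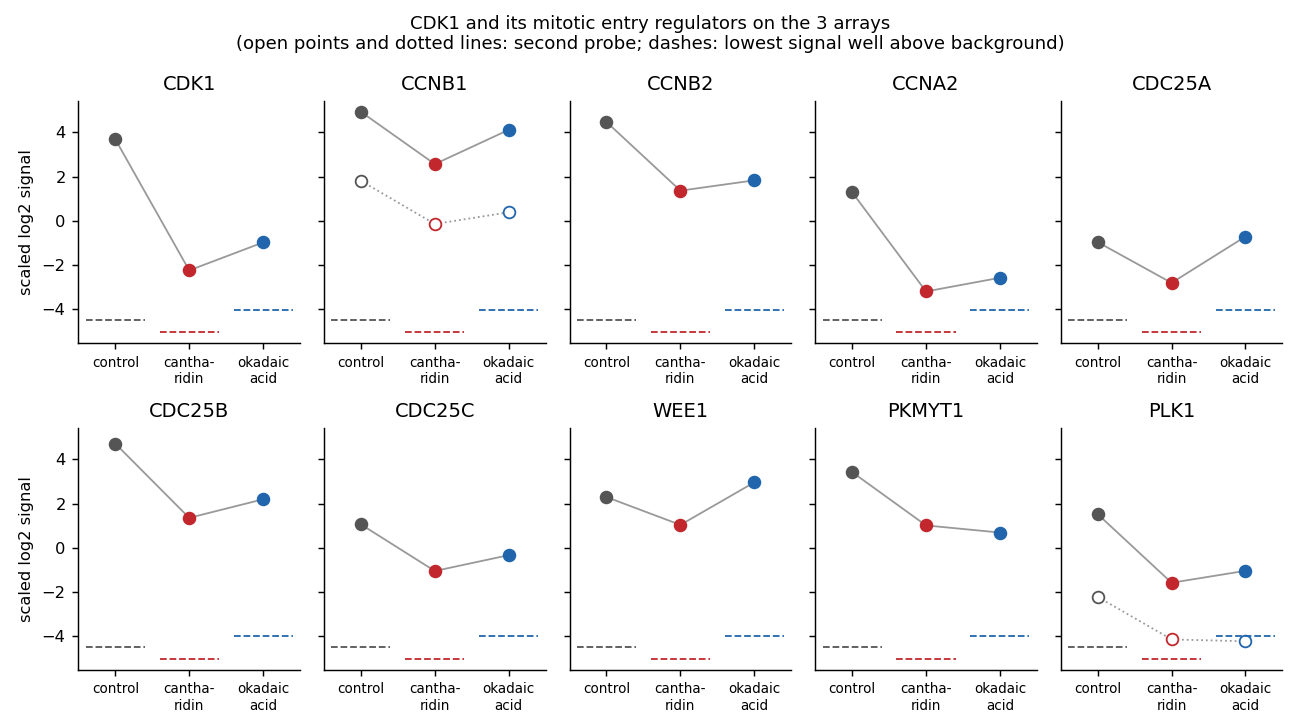
Scaled log2 signal (log2 intensity minus the array's 75th percentile) of each gene on the 3 arrays, left to right control, cantharidin, okadaic acid, with filled points for the probe that represents the gene, open points for a second probe and dashes for the lowest signal well above background on that array. CDK1 drops from 3.69 in control cells to -2.24 and -0.97, while WEE1 and CDC25A lie above their control level under okadaic acid, CDC25A within 1.5-fold of it; levels of different probes are not comparable.

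Because these genes are transcribed in waves, the stretches before their transcription starts are shown for CDK1, its 3 cyclins, the CDC25 phosphatases and PLK1. Each is the 200 bases before a RefSeq start in GRCh38.p14, read 5′ to 3′ along the gene's strand. Capitals mark matches, on either strand, to the cell cycle homology region (CHR, searched as TTTGAA or TTCGAA), which binds the DREAM and MuvB complexes, and to the CCAAT box, which binds NF-Y and reads ATTGG on the opposite strand. CDK1 has a pair of annotated starts whose stretches overlap, and both are given. CDC25B and CDC25C have 4 annotated starts each, of which the one with CHR letters in these 200 bases is shown.
CDK1, first start, chr10:60778131-60778330, plus strand: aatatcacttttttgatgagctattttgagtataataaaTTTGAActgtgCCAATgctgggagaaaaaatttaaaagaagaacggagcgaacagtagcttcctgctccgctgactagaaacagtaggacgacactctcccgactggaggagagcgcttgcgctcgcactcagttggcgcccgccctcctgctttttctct
CDK1, second start, chr10:60778278-60778477, plus strand: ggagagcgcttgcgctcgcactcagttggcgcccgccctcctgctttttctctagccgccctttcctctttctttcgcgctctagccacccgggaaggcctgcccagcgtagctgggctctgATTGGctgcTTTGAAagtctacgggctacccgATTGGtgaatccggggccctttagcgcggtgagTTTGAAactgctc
CCNA2, chr4:121823884-121824083, minus strand: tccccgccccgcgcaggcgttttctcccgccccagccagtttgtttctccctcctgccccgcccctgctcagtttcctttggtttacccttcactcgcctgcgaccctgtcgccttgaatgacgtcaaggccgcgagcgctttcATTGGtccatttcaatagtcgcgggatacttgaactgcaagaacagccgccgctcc
CCNB1, chr5:69166950-69167149, plus strand: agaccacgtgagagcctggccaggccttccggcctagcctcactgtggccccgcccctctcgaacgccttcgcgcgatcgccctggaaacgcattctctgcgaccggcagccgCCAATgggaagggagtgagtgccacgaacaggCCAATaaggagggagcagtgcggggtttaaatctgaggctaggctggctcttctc
CCNB2, chr15:59104946-59105145, plus strand: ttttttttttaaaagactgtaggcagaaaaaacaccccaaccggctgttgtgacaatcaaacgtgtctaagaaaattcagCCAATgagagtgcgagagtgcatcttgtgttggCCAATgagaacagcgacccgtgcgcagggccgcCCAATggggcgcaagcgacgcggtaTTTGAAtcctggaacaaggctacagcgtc
PLK1, chr16:23678689-23678888, plus strand: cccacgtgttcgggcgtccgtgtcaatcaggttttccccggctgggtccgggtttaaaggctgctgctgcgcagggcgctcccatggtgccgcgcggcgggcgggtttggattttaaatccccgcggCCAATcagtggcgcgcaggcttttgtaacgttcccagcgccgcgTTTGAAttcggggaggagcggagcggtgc
CDC25B, chr20:3796110-3796309, plus strand: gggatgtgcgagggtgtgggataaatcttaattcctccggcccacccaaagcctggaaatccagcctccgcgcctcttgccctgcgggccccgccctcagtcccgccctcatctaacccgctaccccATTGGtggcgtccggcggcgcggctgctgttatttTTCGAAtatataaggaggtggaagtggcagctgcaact
CDC25C, chr5:138331805-138332004, minus strand: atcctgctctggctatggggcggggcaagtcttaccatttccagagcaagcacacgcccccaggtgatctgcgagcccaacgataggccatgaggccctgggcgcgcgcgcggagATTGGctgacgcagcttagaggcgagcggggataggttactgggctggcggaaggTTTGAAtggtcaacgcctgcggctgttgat
CDC25A, chr3:48188418-48188617, minus strand: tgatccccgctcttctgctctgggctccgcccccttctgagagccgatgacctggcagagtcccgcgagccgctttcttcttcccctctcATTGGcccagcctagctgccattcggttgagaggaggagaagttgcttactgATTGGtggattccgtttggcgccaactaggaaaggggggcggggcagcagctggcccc

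Before the second start of CDK1, CHR letters began 69 and 13 bases upstream and CCAAT letters 78 and 46 bases upstream. In CCNB2 and PLK1 the CHR match began 29 bases before the start, and at the shown starts of CDC25C and CDC25B it began 30 and 38 bases before it. The starts of CDC25B and CDC25C that are not shown held no CHR letters in the 200 bases before them. CCNB2 also carried CCAAT letters 120, 87 and 54 bases upstream. The printed stretches of CCNA2, CCNB1 and CDC25A held CCAAT but not these CHR letters, which says no more than that the searched letters are not in these windows.

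Windows of 300 bases, 250 before and 50 after each start, were available for 8 of the 10 genes, with 15 starts in all. Both CHR and CCAAT occurred in 7 of these 15 windows and in 6.38% of 35116 windows of all genes. CHR alone matched 7 of the 15 and 16.4% of all windows, and CCAAT 11 of the 15 and 34.6%. The GC box (GGGCGG), the site of Sp1 that the series title brings up, matched 13 of the 15 windows and 45.0% of all. Before the second CDK1 start it lay 168 and 145 bases upstream, on the opposite strand. E2F letters (TTTCCCGC, TTTCGCGC, TTTGCCGC or TTTGGCGC) were found in 3 of the 15 windows and 3.31% of all. Windows of 1 gene overlap and are not independent, and a match is not evidence of binding.

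CDK1 itself had intensities of 10139 in control cells, 151 under cantharidin and 477 under okadaic acid. The transcript was abundant on the control array alone, although both treated signals were still well above background, at 6.89 and 8.21 times the lowest such signal of their array. The log2 difference from control was -5.93 ± 0.02 under cantharidin (61.1-fold lower) and -4.67 ± 0.03 under okadaic acid (25.4-fold lower), where the error is the standard error from spots of the same probe and covers noise within an array only. Scaled to the arrays, 1.64% of the control signal was left under cantharidin and 3.94% under okadaic acid. With another background correction, normexp, the fall under cantharidin was 37.7-fold.

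The CDK1 probe was spotted 10 times on each array. Control spots ranged from 9849 to 10375, with a median of 10110. Under cantharidin the 8 spots without outlier flags lay between 143 and 159, and under okadaic acid the 10 spots lay between 448 and 571. No spot of one array overlapped those of another, and after scaling the nearest control and treated spots were 56.3-fold apart for cantharidin and 20.6-fold apart for okadaic acid.

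**Figure D2:**
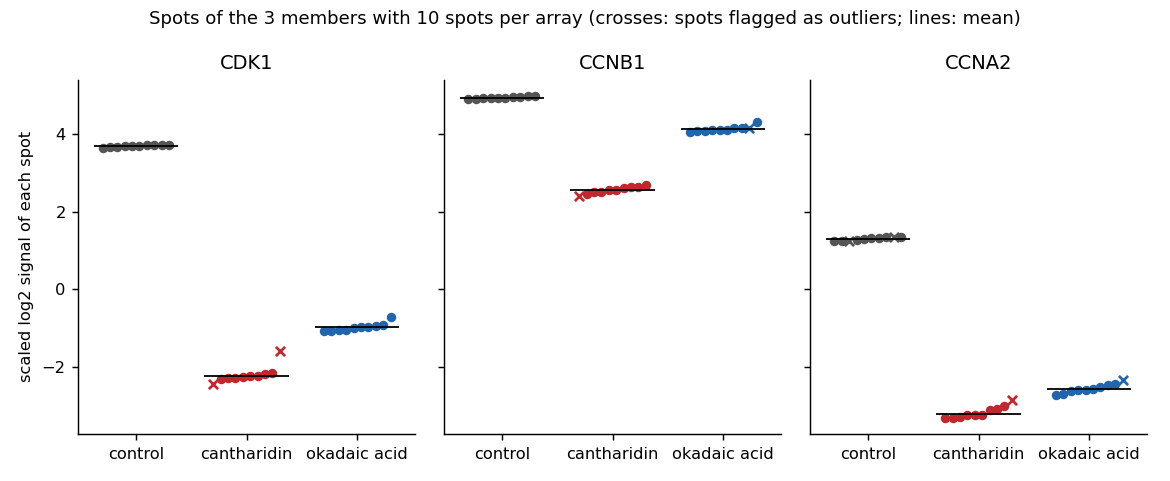
Scaled log2 signal of each of the 10 spots per array for CDK1, CCNB1 and CCNA2, sorted by value, with crosses for spots flagged as outliers and a line at the mean of the others. The spots of each array form a tight band, and for each of the 3 genes the cantharidin band of unflagged spots is the lowest and the control band the highest; for CCNB1 the okadaic acid band lies 1.51-fold below the control band at the nearest spots.

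Of the cyclins, CCNA2 (cyclin A2), which partners CDK2 in S phase and CDK1 in G2, fell most. Its intensity was 1929 in control cells, 77.8 under cantharidin and 157 under okadaic acid. It was 22.5-fold below control with cantharidin (log2 difference -4.49 ± 0.04) and 14.7-fold below it with okadaic acid (-3.87 ± 0.04). Both treated values were close to the dim end of their arrays, with 3.56 and 2.71 times the lowest signal that counted as well above background. With the normexp background correction the falls were 11.8-fold and 9.56-fold. CCNB2 (cyclin B2), a B-type cyclin found largely at the Golgi, had intensities of 17451, 1838 and 3338 in control cells, after cantharidin and after okadaic acid. Both treated signals of CCNB2 were low and close to each other, 8.62-fold and 6.24-fold below control (-3.11 ± 0.13 and -2.64 ± 0.11).

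CCNB1 (cyclin B1), which enters the nucleus with CDK1 as mitosis begins, differed between the 2 agents. Its brighter probe gave intensities of 24019 in control cells, 4231 under cantharidin and 16300 under okadaic acid. It was low under cantharidin, 5.16-fold below control (-2.37 ± 0.03), and nearer to control under okadaic acid, 1.76-fold below it (-0.81 ± 0.03). Without scaling between arrays the okadaic acid difference was -0.56, which is inside 1.5-fold. A second CCNB1 probe gave intensities of 2755, 646 and 1227, and was 3.87-fold lower with cantharidin (-1.95 ± 0.12) and 2.68-fold lower with okadaic acid (-1.42 ± 0.09). The probes thus gave the same order of arrays and a different size of the fall under okadaic acid. On their brightest probes, the log2 difference of CCNB2 under okadaic acid minus that of CCNB1 was -1.83.

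The CDC25 phosphatases, which activate CDK1, did not move together. CDC25B, which starts CDK1 activation at the centrosome, had intensities of 20520, 1817 and 4276 in the same order, 10.3-fold lower with cantharidin (-3.36 ± 0.13) and 5.73-fold lower with okadaic acid (-2.52 ± 0.10). CDC25C, the form that PLK1 and CDK1 activate at mitotic entry, had 1630, 343 and 741, a fall of 4.31-fold (-2.11 ± 0.14) and of 2.63-fold (-1.39 ± 0.10). Both were thus low under each agent and lowest under cantharidin.

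CDC25A, which also acts on CDK2 at the entry into S phase, was low under cantharidin alone. Its intensities were 403 in control cells, 102 under cantharidin and 573 under okadaic acid. It was 3.59-fold lower under cantharidin (-1.84 ± 0.20) and within 1.5-fold of control under okadaic acid (0.25 ± 0.11). In 11 alternative settings its okadaic acid difference ran from 0.12 to 0.51 and never passed 1.5-fold. Under okadaic acid the differences of CDC25A and CDC25B were 2.77 apart on the log2 scale, against 1.52 apart under cantharidin.

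The inhibitory kinases also parted under okadaic acid. WEE1, the nuclear kinase that phosphorylates CDK1, had intensities of 3838 in control cells, 1458 under cantharidin and 7272 under okadaic acid. It was 2.39-fold lower under cantharidin (-1.26 ± 0.10), the smallest fall of the 10 genes there, and 1.59-fold higher under okadaic acid (0.67 ± 0.08). With arrays scaled to their medians the okadaic acid difference was 0.55 and fell inside 1.5-fold. In the other settings it stayed past it, though changes of filter or probe could not move it. PKMYT1, the membrane-bound kinase with the same target, had 8413, 1434 and 1505, and was low under both agents by 5.33-fold (-2.41 ± 0.11) and 6.67-fold (-2.74 ± 0.09). PKMYT1 was the 1 member whose fall was larger under okadaic acid, but the direct difference between the agents, -0.32 ± 0.11, turned to 0.07 without scaling.

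PLK1, the kinase that promotes CDK1 activation and later steps of mitosis, had intensities of 2247, 237 and 453 in that order. It lay 8.61-fold below control with cantharidin (-3.11 ± 0.17) and 5.92-fold below it with okadaic acid (-2.56 ± 0.10). With the median over its probes the cantharidin fall was 5.72-fold. A dimmer PLK1 probe gave 168, 40.1 and 49.7, with a 3.80-fold lower signal under cantharidin. Under okadaic acid that probe was not well above background, and its fall from control was 3.45-fold when taken to the lowest signal well above background.

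**Figure D3:**
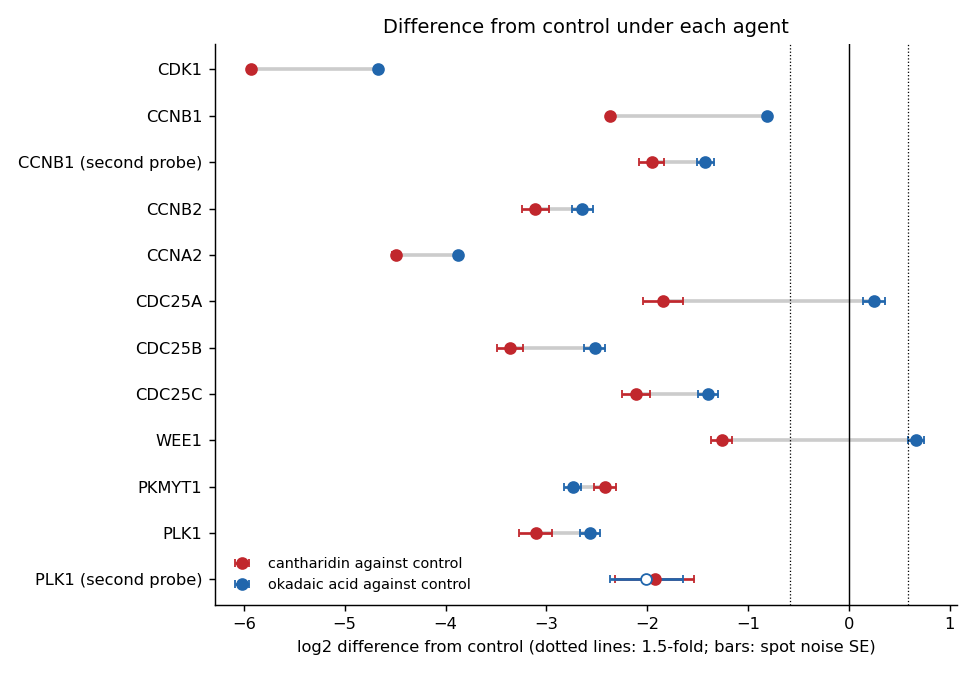
Log2 difference from control for each probe under cantharidin (red) and okadaic acid (blue), with bars for the standard error from spot noise, dotted lines at 1.5-fold and an open point where the treated signal was not well above background. All cantharidin points lie at or left of -1.26, and the okadaic acid points spread from -4.67 for CDK1 to 0.67 for WEE1. The open point is drawn at the signal as measured.

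The changes of the inhibitory kinases were set against that of CDK1, and against each other, by differences of log2 changes. Such differences compare changes and not levels. CDK1 and WEE1 were the lowest and highest of the members under both agents, and no CDC25 gene entered these values. The change of WEE1 exceeded that of CDK1 by 4.67 on the log2 scale under cantharidin and by 5.33 under okadaic acid, or 25.5-fold and 40.3-fold. For PKMYT1 the same values were 3.52 and 1.93. WEE1 and PKMYT1 were 1.16 apart under cantharidin and 3.40 apart under okadaic acid. Both agents were set against the same control array, so these values share its error.

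The treated arrays were also compared directly. The sample labels give the same dose and time for both agents, although the wording of the treatment protocol can also be read as giving the dose for cantharidin alone. Okadaic acid cells had at least 1.5-fold higher signals than cantharidin cells for 7 of the 10 genes and lower signals past that size for 0 of them, with CCNB2, PLK1 and PKMYT1 inside 1.5-fold. Over 16200 genes, 29.5% were at least 1.5-fold higher under okadaic acid and 22.3% at least 1.5-fold lower. At a 2-fold threshold 4 of the 10 genes were higher than under cantharidin and 0 were higher than in control cells, where 16.5% and 18.8% of all genes were. The median log2 difference of the 10 genes was 0.78, against 0.13 over all genes. CDC25A differed most, at 4.28-fold (2.10 ± 0.20; 2.74-fold with normexp, then below WEE1), followed by WEE1 at 3.80-fold (1.93 ± 0.11), CCNB1 at 2.93-fold (1.55 ± 0.04) and CDK1 at 2.41-fold (1.27 ± 0.04). Of these, CDC25A stood among the top 3.11% of 14604 genes measured on both arrays, WEE1 among the top 4.20%, CCNB1 among the top 7.07% and CDK1 among the top 11.04%. The second CCNB1 probe gave 1.45-fold (0.53 ± 0.13), inside 1.5-fold, so the count and rank of CCNB1 rest on its brighter probe. CDC25B (1.79-fold), CDC25C (1.64-fold) and CCNA2 (1.54-fold) were closer to the threshold. Under median scaling CDC25C fell inside it (0.56), and without scaling CCNB2 (0.86) and PLK1 (0.93) passed it. The share of all genes at least 1.5-fold higher was 24.2% under median scaling and 47.1% without scaling. The CCNA2 difference ran from 0.31 with normexp, inside 1.5-fold, to 1.01 without scaling. Changes of filter or probe could not move it, as CCNA2 has 1 probe, well above background on all arrays.

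The position of each member was then read among genes well above background on both arrays of a comparison. This leaves out genes whose treated signal was dim, such as E2F1 and CDK6 under cantharidin. Ranked from the lowest of 14900 genes measured on both arrays, CDK1 was number 9 under cantharidin, CCNA2 number 52 and CDC25B number 225. CCNB2 and PLK1 came at 304 and 306, PKMYT1 at 730, CCNB1 at 771, CDC25C at 1011, CDC25A at 1353 and WEE1 at 2437. The falls of the members thus spanned from the extreme edge to 16.4% of the way up the list. Under okadaic acid, among 14428 genes, CDK1 was number 11 and CCNA2 number 42. PKMYT1, CCNB2, PLK1 and CDC25B lay between 278 and 392, CDC25C at 1631 and CCNB1 at 3087, while CDC25A at 8530 and WEE1 at 10745 stood in the upper part of the distribution.

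**Figure D4:**
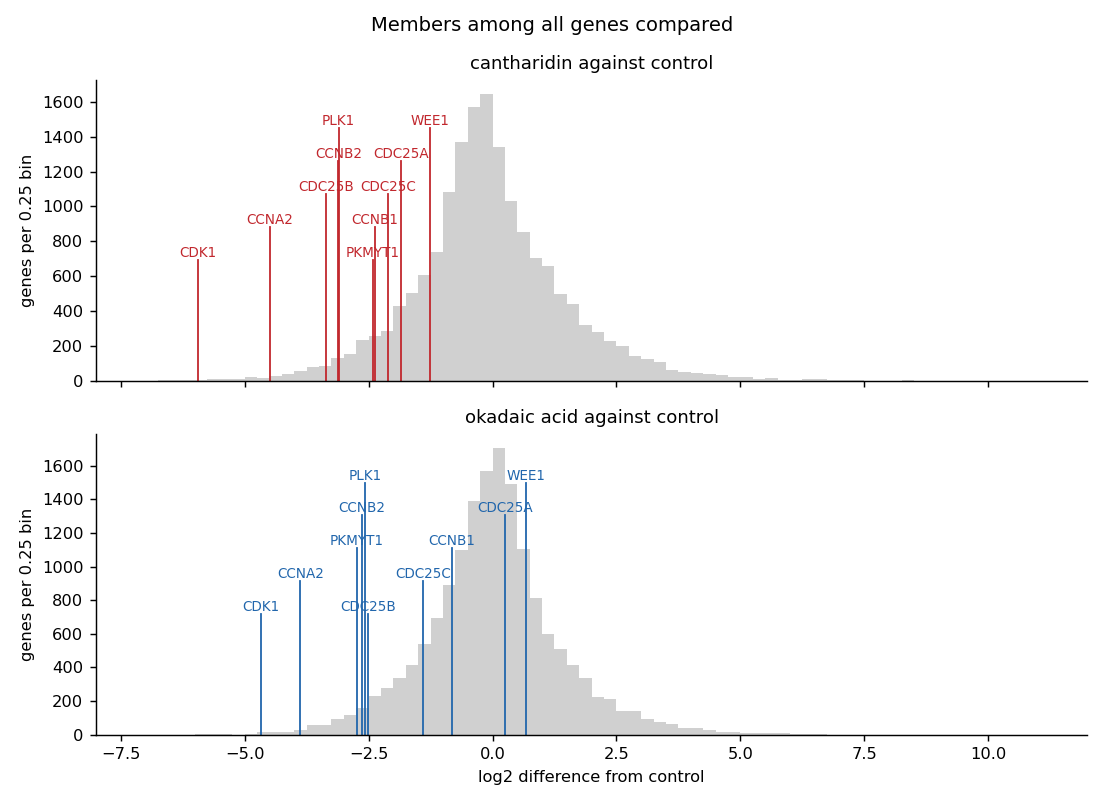
Number of genes per 0.25 log2 bin of the difference from control, for 16644 genes under cantharidin and 16166 under okadaic acid, with a line at the value of each of the 10 genes (line heights only separate the names). CDK1 and CCNA2 sit in the far lower tail in both panels, and CDC25A and WEE1 lie inside the bulk under okadaic acid; the CCNB2 and PLK1 lines nearly coincide under cantharidin.

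Genes whose pattern was most like that of CDK1 were taken by the distance between their pair of log2 differences and that of CDK1, over 3 arrays and 14221 other genes measured on all of them. The nearest was IGFBP4, an insulin-like growth factor binding protein, at a distance of 0.237, with differences of -5.95 under cantharidin and -4.43 under okadaic acid. NEK2, a centrosomal kinase, came next at 0.287 (-5.99 and -4.39), then the spindle checkpoint kinase BUB1 at 0.481 (-6.41 and -4.75), PCYOX1L at 0.571 (-5.37 and -4.72) and AURKB, the kinase of the chromosomal passenger complex, at 0.693 (-5.32 and -4.99). Under normexp the cantharidin differences of NEK2, PCYOX1L and AURKB were -4.31, -4.66 and -4.16. The same values were -5.23 for CDK1 and -5.07 for BUB1. Of the 14222 genes, CDK1 included, 4 were at or below CDK1 under both agents. These were CDK1, BUB1, PBK and PRSS23, the last pair named after their values were seen. With normexp BUB1 lay above CDK1 under cantharidin and so left this set.

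The partners of CDK1 were counted next in 7 lists of genes, also chosen with earlier results of these data known. The counts stand against the shares of all genes given above. These were 34.1% lower and 27.5% higher under cantharidin, and 28.8% lower and 28.1% higher under okadaic acid. Among the CDK1 substrates and partners that work in mitosis, 9 of 11 genes compared were at least 1.5-fold lower under cantharidin and 9 of 11 under okadaic acid, and 0 were higher. The medians of their log2 differences were -3.04 for cantharidin and -1.45 for okadaic acid. BUB1 had intensities of 5553, 59.5 and 247, or 84.9-fold and 26.9-fold lower, and with normexp the cantharidin fall was 33.5-fold. BIRC5 (survivin), a passenger complex protein, had 29370, 1118 and 2689, or 23.9-fold and 13.0-fold lower. INCENP, the scaffold of that complex, was 15.3-fold and 7.59-fold lower, and ECT2, which acts in cytokinesis, 9.45-fold and 3.67-fold lower. With normexp the cantharidin falls of INCENP and ECT2 were 9.82-fold and 6.10-fold. Without scaling, 1 of the 11 genes was higher under okadaic acid.

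Cofactors and the CDK-activating kinase did not follow the members as a group. Of 5 genes, 2 were lower and 1 higher under cantharidin, and 1 lower and 1 higher under okadaic acid (1 and 2 without scaling). CKS1B, a small subunit that binds CDKs, was lower under both agents, by 10.6-fold with cantharidin and 5.54-fold with okadaic acid. Its relative CKS2 had log2 differences of -1.13 and -0.23, the latter inside 1.5-fold and near zero, at 0.03 without scaling. CDK7, the kinase that phosphorylates the activation loop of CDK1, had intensities of 6114, 7328 and 38361. It was close to control with cantharidin (0.40) and 5.26-fold higher with okadaic acid. CCNH, the cyclin of CDK7, was 1.85-fold higher under cantharidin and within 1.5-fold under okadaic acid (0.47), or just past it without scaling (0.73).

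Genes around Aurora A, Greatwall and PP2A-B55, which set the phosphatase threshold for mitotic entry, were mixed. Of 11 genes, 3 were lower and 4 higher under cantharidin, and 1 lower and 4 higher under okadaic acid, with medians of 0.45 and 0.20. The okadaic acid counts were 0 lower and 5 higher without scaling, and 2 lower and 3 higher under median scaling. AURKA (Aurora A), which activates PLK1, had intensities of 2324, 590 and 2912, 3.58-fold lower under cantharidin and near control under okadaic acid (0.07, and -0.05 under median scaling). BORA, the cofactor through which Aurora A acts on PLK1, was 1.78-fold lower with cantharidin and 2.84-fold higher with okadaic acid. Its cantharidin difference was -0.55, inside 1.5-fold, in one of the other scalings or background corrections. PPP2R2A, a B55 subunit, had log2 differences of 0.86 and -0.77, and the latter was -0.52 without scaling. PPP2R2D, another B55 subunit, was higher under both agents (1.13 and 0.98). ENSA, an inhibitor of PP2A-B55, gave -1.34 and 0.75 on its brighter probe, but 0.14 and -1.14 on the other, so its direction was not settled.

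Checkpoint kinases and 14-3-3 proteins hold back CDC25 and CDK1 after DNA damage. Of 14 genes compared, 5 were lower and 4 higher under each agent. For okadaic acid the larger count changed sides with the scaling, with 2 lower and 5 higher without scaling and 6 lower and 4 higher under median scaling. SFN (14-3-3 sigma), which keeps CDK1 and cyclin B1 in the cytoplasm, had intensities of 23676, 259451 and 282273, 12.1-fold and 9.99-fold higher. CDKN1A (p21), a CDK inhibitor, had 255, 2302 and 1691, with log2 differences of 3.31 and 2.47. GADD45A, which disrupts the CDK1 and cyclin B1 complex, was 5.81-fold and 2.20-fold higher. CHEK2, a checkpoint kinase that phosphorylates CDC25 proteins, was 4.43-fold lower with cantharidin and 1.95-fold lower with okadaic acid.

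Of 16 genes that act in the transcription of G2/M genes, 9 were lower and 3 higher under cantharidin, and 7 lower and 3 higher under okadaic acid. FOXM1, which activates CCNB1, PLK1 and CDC25B in G2, had intensities of 1463, 157 and 126, 8.48-fold and 13.9-fold lower, the latter 8.01-fold with normexp. E2F1, an activator of S phase genes, was not well above background under cantharidin, where its signal was 21.3-fold lower. It was 6.66-fold lower under okadaic acid. These sizes depended on the background correction, and with normexp they were 6.10-fold and 4.10-fold. RBL2 (p130), the pocket protein of the repressive DREAM complex, was 4.55-fold and 8.26-fold lower (2.82-fold and 3.99-fold with normexp). LIN37, a subunit of the same complex, had 4269, 16714 and 59726, 4.31-fold and 11.7-fold higher. The list thus held activators and a repressor among its lower genes. SP1 lay within 1.5-fold of control under both agents, with log2 differences of 0.26 and 0.33. It falls outside the rule for named genes and was picked after its values were seen, since the series title brings it up.

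In the degradation list, which holds the machinery that destroys cyclins and WEE1, 4 of 11 genes were lower and 3 higher under cantharidin. Under okadaic acid 3 were lower and 3 higher, near the shares of all genes (28.8% and 28.1%), as were the cantharidin counts (34.1% and 27.5%). Without scaling the okadaic acid counts were 1 lower and 5 higher. FBXO5 (EMI1), which inhibits the anaphase-promoting complex, was 11.5-fold and 5.37-fold lower. CDC20, an activator of that complex, was 3.82-fold lower with cantharidin and 1.73-fold lower with okadaic acid, the latter inside 1.5-fold without scaling (-0.54). CDC16, a subunit of the complex, was 3.73-fold and 2.10-fold higher. BTRC, the F-box protein that recognises phosphorylated WEE1 and EMI1, was 4.98-fold higher under okadaic acid, from a control intensity of 46.8 that was near the lowest signal well above background on that array, 35.0. With normexp it was 2.01-fold higher.

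Among the other CDKs and cyclins, 6 of 8 genes were lower and 1 higher under cantharidin, and 2 lower and 2 higher under okadaic acid (2 and 1 under median scaling, 2 and 3 without scaling). CDK2, the S phase kinase, was 6.39-fold and 5.93-fold lower, and CDK4, a G1 kinase, 3.77-fold and 2.65-fold lower. CDK6 was not well above background under cantharidin, where its signal was 9.62-fold lower, and had a log2 difference of -0.45 under okadaic acid. With normexp the cantharidin fall of CDK6 was 2.76-fold. CCND2 (cyclin D2) was 10.5-fold higher under cantharidin, with intensities of 86.0 in control cells and 820 after treatment (5.82-fold higher with normexp), and its okadaic acid difference was 0.33. CCND3 (cyclin D3) was 3.46-fold lower with cantharidin and 1.56-fold higher with okadaic acid, the second value falling inside 1.5-fold under median scaling (0.52).

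**Figure D5:**
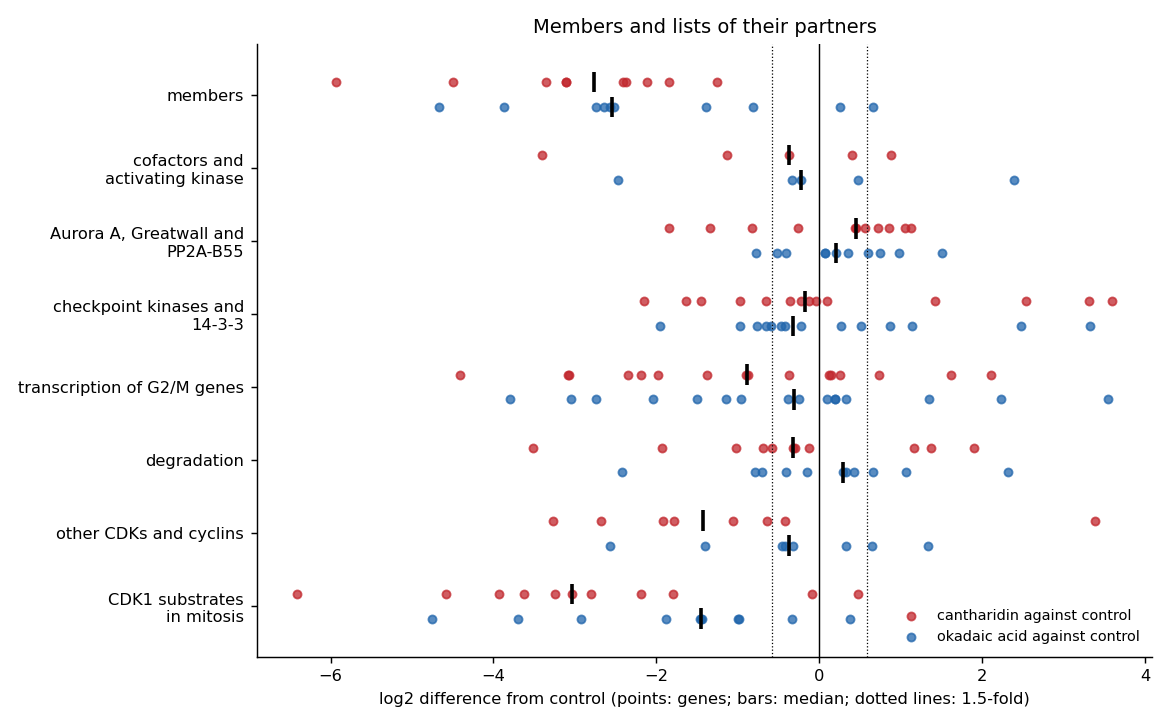
Log2 difference from control of each gene compared, by list, under cantharidin (red) and okadaic acid (blue), with black bars at the list medians and dotted lines at 1.5-fold. The members and the CDK1 substrates in mitosis lie mostly on the left under both agents, with medians of -2.76 and -3.04 under cantharidin, while the other lists scatter to both sides.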

How the data were processed

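Gene expression was measured on 3 Agilent 1-colour arrays of control, cantharidin and okadaic acid cells, grouped by sample title. The authors deposited scanner output made with Feature Extraction 11.0.1.1, whose processed intensity values were, per the file headers, background-subtracted and spatially detrended array by array, and not scaled across arrays (probe annotation hg19). A second deposited table held normalized log2 values of 30923 among the 34127 transcript probes, by a method not given in the sources used here; each of its columns correlated with its own array at r of at least 0.998. Its columns had medians of 7.74, and its scale was taken as log2 from this match. The arrays shared 1 slide and 1 scan, and array position and group cannot be told apart. No saturated transcript spot was found.

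Per probe, spots with outlier flags were dropped, log2 intensity was averaged over the rest, and each array's 75th percentile was subtracted (an intensity of 784 on the control array, 713 with cantharidin, 936 with okadaic acid). Comparisons used probes that either of their 2 arrays measured well above background, and a difference was counted from 1.5-fold. Of the 34041 probes, 24768 had such a signal in control cells, 25103 after cantharidin and 23071 after okadaic acid. Where 1 signal of a named gene was dim, its printed fold was taken against the higher of that signal and the lowest signal well above background (35.0, 21.9 and 58.0). Such a fold depends on the background correction and is not a lower limit. Counts, medians and shares of all genes used dim signals as measured. With dim signals raised in the same way, 34.0% of genes were lower and 26.3% higher under cantharidin. The shares under okadaic acid were then 27.0% and 28.0%. Accessions were matched without version to RefSeq transcripts of GRCh38.p14, naming 25705 probes and 19699 genes, and the probe with the highest mean log2 signal represented its gene. Spot noise came from the probe's own spots where it had 10, and otherwise from the 100 probes with 10 spots nearest in brightness. Promoter windows were taken from RefSeq (GRCh38.p14). No pseudocount, test or p-value was used, and the number of arrays limits the precision.

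The members and lists were chosen with earlier results of these data known. Named partners were up to 4 genes per list with the largest mean absolute difference over both agents, and those past 1.5-fold in opposite directions. UBE2C and CCNA1 had no matched probe, and CLSPN, CCNB3 and NCAPH were not well above background on any array (representing probe). Alternatives were normexp background correction (on the median spot signal), other scalings (median, probes detected on all arrays, quantile, none), the deposited table, other filters, the median over probes, another choice of probe and a 2-fold threshold. On simulated data of 34041 probes, built from the control array alone, the count recovered 100% of 200 planted changes. The planted changes were far larger than 1.5-fold and than the simulated noise, so this recovery was fixed in advance. The simulation does not check counts near the threshold, or counts with as many changed genes as here. Software was Python 3.11.15 (numpy 2.4.6, pandas 2.3.3, matplotlib 3.10.9) and R 4.3.3 (limma 3.58.1).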

Additional observations from a re-analysis of the deposited data

How the results depend on the processing

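No paired analysis was possible because each group had 1 array, and for the same reason no array could be left out. The scalings and background corrections moved the median difference of all genes between -0.30 and -0.09 for cantharidin, -0.11 and 0.26 for okadaic acid, and -0.02 and 0.52 between the agents. Under cantharidin each of the 10 genes stayed at least 1.5-fold lower in all 11 settings that gave it a value. No member value counted past 1.5-fold changed sign. Changes of filter could not move these values, as each representing probe was well above background on all arrays. Changes of probe could move only CCNB1 and PLK1, the members with more than 1 probe. The median difference of the 10 genes under cantharidin was -2.62 with normexp, -2.90 without scaling, -2.64 in the deposited table and -2.46 with the median over probes. For okadaic acid it was -2.42, -2.29, -2.41 and -2.40 in the same settings, and -2.66 under median scaling. Between the agents it was 0.63 under median scaling and 1.17 without scaling. The count of genes higher under okadaic acid than in control (1, WEE1) was 0 under median scaling and 0 at a 2-fold threshold, and the count higher than under cantharidin (7) was 4 at 2-fold. In the remaining settings these counts of the 10 genes stayed within 1.5 times the values given, which does not mean unchanged. The count of 7 was 6 with normexp, and it moved with the scaling. The cause of the changes was not tested. Counts over the partner lists moved more, mostly for okadaic acid without scaling, and single folds moved over 1.5 times mostly with normexp; they stand beside their results. Under both agents the signals of CCNA2 and of the second PLK1 probe were less than 4 times the lowest signal well above background, which limits the precision of their folds.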
